A study of Mus musculus with 4 samples.

Results

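Kcnq3, Kcnq5, Hcn2, Hcn3 and Hcn4 encode pore subunits of 2 families of ion channels that set how readily neurons fire. They were taken by symbol from the Entrez gene identifiers of 4 count files, and all 5 were found among 27179 identifiers and had enough counts to be tested. Poly(A) RNA-seq had been made from spinal cord at L4-6 in C57BL/6J mice, all male, with 2 libraries titled cuff and 2 titled sham. The cuff model places a cuff around the sciatic nerve, and the series gives day 28 after surgery. No other genotype, allele or agent is named, and the age of the mice and any pooling of animals are not stated in the labels. For each of the 4 libraries the deposited file is named for the other condition than the sample title. The titles define the groups here, and every direction below would be the opposite were the file names correct. Separate animals are not stated for the 2 libraries of a group, and the p-values then reflect the spread between libraries alone, which may be technical.

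Kcnq subunits form voltage-gated potassium channels, and those of the nervous system carry the M-current, a slow outward current that opens below the firing threshold and does not inactivate. Muscarinic receptors close these channels through Gq and the breakdown of the membrane lipid PIP2, which makes the neuron more excitable. Hcn subunits form cation channels that open when the membrane becomes more negative and are eased open by cyclic AMP. Their inward current, known as Ih, steers the resting potential and rhythmic firing. Both families are carried by sensory, dorsal horn and motor neurons.

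The Hcn subunits carry the glycine-tyrosine-glycine signature of the potassium selectivity filter, though their channels also pass sodium. The coding strand around it is shown for the Hcn members, to place them within their family. The sequences run 5′ to 3′ in the sense of the mRNA (GENCODE M21 transcripts, build GRCm38), with the codons of the signature in capitals.
Hcn2: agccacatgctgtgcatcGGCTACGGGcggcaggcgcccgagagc
Hcn3: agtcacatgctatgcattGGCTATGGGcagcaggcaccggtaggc
Hcn4: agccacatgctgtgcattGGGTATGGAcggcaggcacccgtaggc
The stretches lie at chr10:79728941-79728985 (plus strand) for Hcn2, chr3:89150988-89151032 (minus) for Hcn3 and chr9:58855573-58855617 (plus) for Hcn4. Hcn3 and Hcn4 shared 39 of 45 bases, Hcn2 and Hcn4 shared 37, and Hcn2 and Hcn3 shared 35. Over whole transcripts, the longest run of identical bases that a member shared with another Kcnq or Hcn gene was 33 (Hcn2 with Hcn3), and for Kcnq3 it was 23. These runs are short beside reads of 150 bases.

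Kcnq3 was the member that fell in the cuff-labelled libraries. It encodes a subunit of the classical M-channel, and lies on chromosome 15, 65986374 to 66286636 (mm10, RefSeq). It had 167 and 162 counts in the cuff-labelled libraries (replicates 1 and 2) and 444 and 768 in the sham-labelled pair. In CPM, which scales counts to library size, it was at 4.63 and 4.75 in the cuff-labelled libraries and at 11.6 and 19.9 in the sham-labelled pair. The groups did not overlap, and the 2 libraries labelled cuff lay much closer together than the 2 labelled sham. Its mean was 4.69 ± 0.0822 CPM (SD, n = 2) against 15.8 ± 5.86, or 29.8% of the sham level by the fitted fold. The log2 fold change was -1.75 ± 0.24 (SE), with a 95% interval from -2.27 to -1.23. Its adjusted p was 0.0042 (Benjamini-Hochberg over 16918 genes, edgeR quasi-likelihood F test). By p-value it ranked 17 among all tested genes. In bulk tissue, fewer cells that express a gene and less of its RNA per cell cannot be told apart.

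Of the 5 members, 1 was called lower and none higher, where 4.11% of all tested genes were called, 2.96% lower and 1.15% higher. The groups did not overlap in CPM for 3 members (Kcnq3 below, Hcn2 and Hcn3 above), beside 54.1% of all tested genes (25.9% below and 28.2% above). A gap between the groups was thus common in these libraries and carries little weight by itself. The median log2 fold change was 0.06 over the members and 0.02 over all tested genes.

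**Figure D1:**
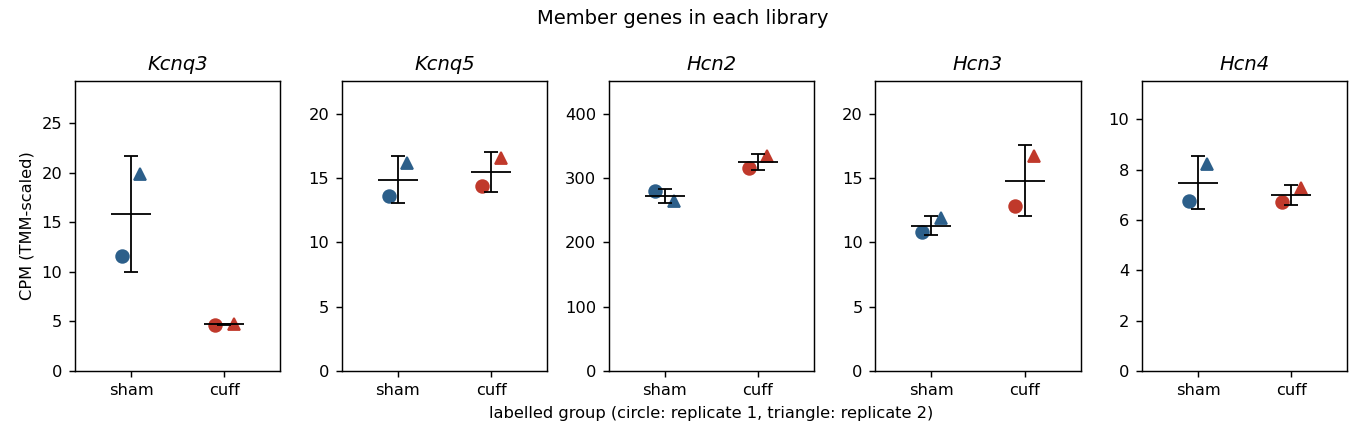
CPM of each member (vertical axis, from 0, with its own scale per gene) in the 2 libraries labelled sham and the 2 labelled cuff. Circles are replicate 1 and triangles replicate 2, and black lines give the mean ± SD. Kcnq3 lies at 4.63 and 4.75 CPM in the cuff-labelled libraries, below 11.6 and 19.9, while the groups of Kcnq5 and Hcn4 overlap.

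Kcnq5 did not follow Kcnq3. It encodes another subunit that can carry M-type current, and lies on chromosome 1, 21398399 to 21962650. It was at 14.4 and 16.6 CPM in the cuff-labelled libraries and at 13.6 and 16.2 in the sham-labelled pair, so the groups overlapped almost wholly. The log2 fold change was 0.06 ± 0.17 (adjusted p = 0.886), with a 95% interval from -0.30 to 0.41 that leaves out the change of Kcnq3. The ratio of Kcnq3 to Kcnq5 counts, taken within each library so that scaling cancels, was 0.322 and 0.287 in the cuff-labelled libraries and 0.855 and 1.23 in the sham-labelled pair. Kcnq3 counts were thus below Kcnq5 counts in 3 of the 4 libraries and furthest below in the cuff-labelled pair. The log2 ratio differed by -1.75 between the groups (-1.72 ± 0.12 against 0.04 ± 0.37, SD, n = 2). The exact permutation test over the libraries gave p = 0.333 (two-sided), the smallest that 2 libraries against 2 allow, and 0.333 after adjustment over the 2 ratios tested.

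Hcn2 was by far the most abundant member. It encodes the Hcn subunit found widely in the nervous system, which responds strongly to cyclic AMP, and lies on chromosome 10, 79716634 to 79736108. It was at 316 and 334 CPM in the cuff-labelled libraries and at 279 and 264 in the sham-labelled pair. Both cuff-labelled libraries were above both sham-labelled ones, but the difference did not pass the test (log2 fold change 0.26 ± 0.13, 95% interval -0.01 to 0.53, adjusted p = 0.253).

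Hcn3, which encodes a subunit that responds little to cyclic AMP, lies on chromosome 3, 89146775 to 89160284. It was at 12.8 and 16.7 CPM in the cuff-labelled libraries and at 10.8 and 11.9 in the sham-labelled pair. The libraries labelled cuff were again the higher ones, and this difference did not pass either (0.38 ± 0.18, adjusted p = 0.234). In the GENCODE M21 annotation, 711 of its 4154 exonic bases are shared with Pklr, a pyruvate kinase gene on the opposite strand. The library kit keeps strand per the labels, but no source used here says whether the counting did, so reads there cannot be assigned with certainty. Pklr itself had between 36 and 55 counts per library, against 413 to 570 for Hcn3.

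Hcn4, the subunit best known from the pacemaker of the heart, lies on chromosome 9, 58822949 to 58863175. It was at 6.71 and 7.27 CPM in the cuff-labelled libraries and at 6.75 and 8.24 in the sham-labelled pair. The groups overlapped, and the log2 fold change was -0.10 ± 0.22 (adjusted p = 0.835, 95% interval -0.56 to 0.36). The ratio of Hcn2 to Hcn4 counts was 47.1 and 46.0 in the cuff-labelled libraries and 41.4 and 32.1 in the sham-labelled pair. Hcn2 was thus the larger by a wide margin in every library. The log2 ratio differed by 0.35 (5.54 ± 0.02 against 5.19 ± 0.26, exact permutation p = 0.333, again the smallest possible, and 0.333 after adjustment).

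Per kilobase of the longest annotated transcript, the members spanned a wide range. In the sham-labelled libraries Hcn2 was at 85.0 ± 3.30 CPM per kilobase (SD, n = 2), Hcn3 at 2.83 ± 0.188, Kcnq5 at 2.13 ± 0.263, Kcnq3 at 1.33 ± 0.495 and Hcn4 at 1.22 ± 0.172. Kcnq3 and Hcn4 could not be ordered there, since the Hcn4 libraries fell between those of Kcnq3, while the other neighbours did not overlap. In the cuff-labelled libraries the order was Hcn2 (102 ± 4.05), Hcn3 (3.69 ± 0.688), Kcnq5 (2.22 ± 0.222), Hcn4 (1.14 ± 0.0643) and Kcnq3 (0.397 ± 0.00695). No neighbours overlapped in those libraries, and Kcnq3 stood last.

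Below Hcn2 the order of sham-labelled means depended on the length used, because the longest Kcnq3 transcript has 9205 noncoding bases beside 2619 coding ones. Divided by the coding length, Kcnq3 was at 6.02 ± 2.24 CPM per kilobase in the sham-labelled libraries, beside 5.21 ± 0.642 for Kcnq5, 4.85 ± 0.322 for Hcn3 and 2.08 ± 0.293 for Hcn4. The sham-labelled Kcnq3 libraries, at 4.43 and 7.6, lay on either side of those of Kcnq5 and Hcn3. Kcnq3, Kcnq5 and Hcn3 could therefore not be ordered there. In the cuff-labelled pair Kcnq3 was at 1.79 ± 0.0314 and remained below Kcnq5 (5.41 ± 0.543), Hcn3 (6.31 ± 1.18) and Hcn4 (1.94 ± 0.109). Hcn2 was first by either length.

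**Figure D2:**
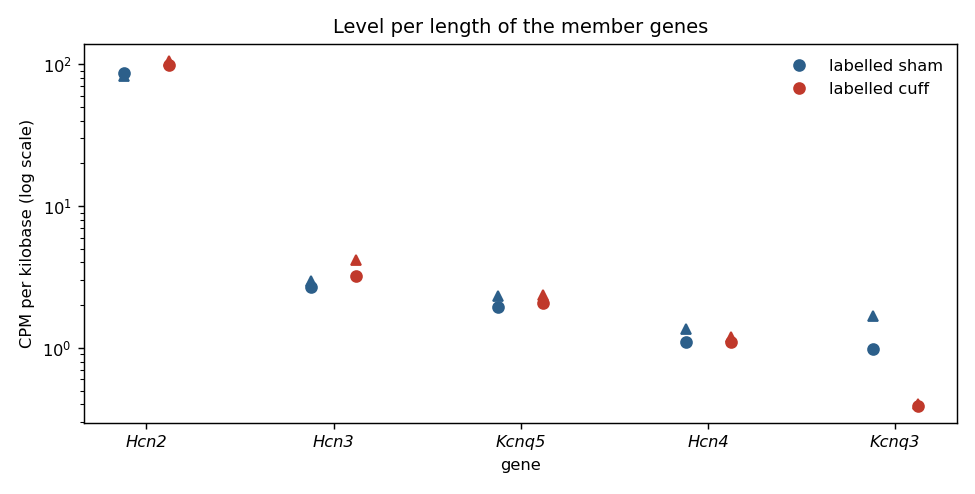
CPM per kilobase of the longest annotated transcript (vertical log axis) for the 5 members, in order of their mean. Each point is a library (circle replicate 1, triangle replicate 2), blue for labelled sham and red for labelled cuff. Hcn2 is highest, at 82.7 to 105, and Kcnq3 falls from 0.982 and 1.68 to 0.392 and 0.401.

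Kcnq1, the heart and epithelial member of the Kcnq family, was barely detected, with 15 to 31 counts per library. It was not called (0.29 ± 0.59, 95% interval -0.95 to 1.53, adjusted p = 0.819).

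The change of Kcnq3 was set beside transcript length and GC content, with which the median change over genes moved in these libraries. For the 15465 genes with a length, the median log2 change went from -0.27 in the lowest of 10 GC bins to 0.28 in the highest. It was -0.27 in the bin with the longest transcripts. The longest Kcnq3 transcript, of 11824 bases, is longer than that of 98.7% of tested genes, and its GC content of 44.4% is low to middling (22.1% of genes are lower). Hcn2 lies at the other end, with 65.4% GC, above 99.7% of tested genes, and 3195 bases. Kcnq5 has 47.7% GC and 6975 bases, Hcn3 58.0% and 4002 bases, and Hcn4 58.0% and 6118 bases.

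When each library was corrected for length and GC content, Kcnq3 was still called, at -1.33 ± 0.21 (adjusted p = 0.0484), just under the threshold. Hcn2 turned from 0.26 to -0.10 (adjusted p = 0.602). The sign of Hcn2 therefore depended on the correction, and that of Kcnq3 did not. Kcnq5 moved to 0.27, Hcn3 to 0.12 and Hcn4 to -0.26, and none of these was called (edgeR quasi-likelihood test).

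**Figure D3:**
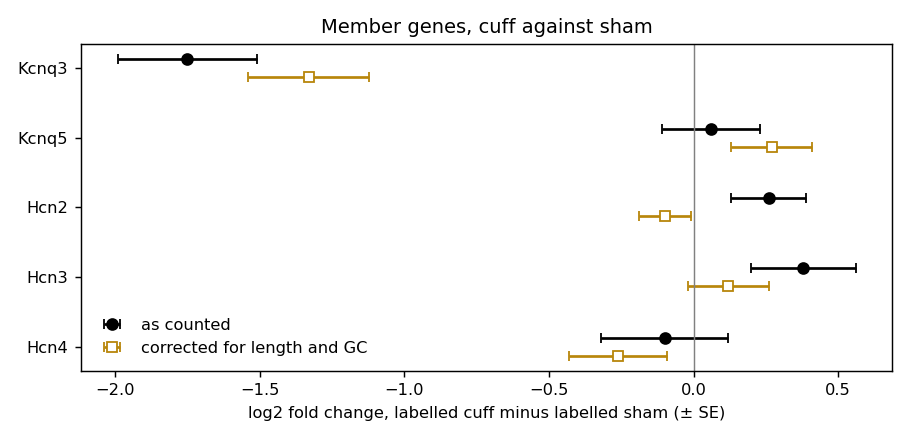
Log2 fold change (horizontal axis, ± SE) of the 5 members, as counted (black circles) and with each library corrected for transcript length and GC content (open squares). Kcnq3 is at -1.75 and -1.33, and Hcn2 lies on opposite sides of 0 in the 2 fits.

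**Figure D4:**
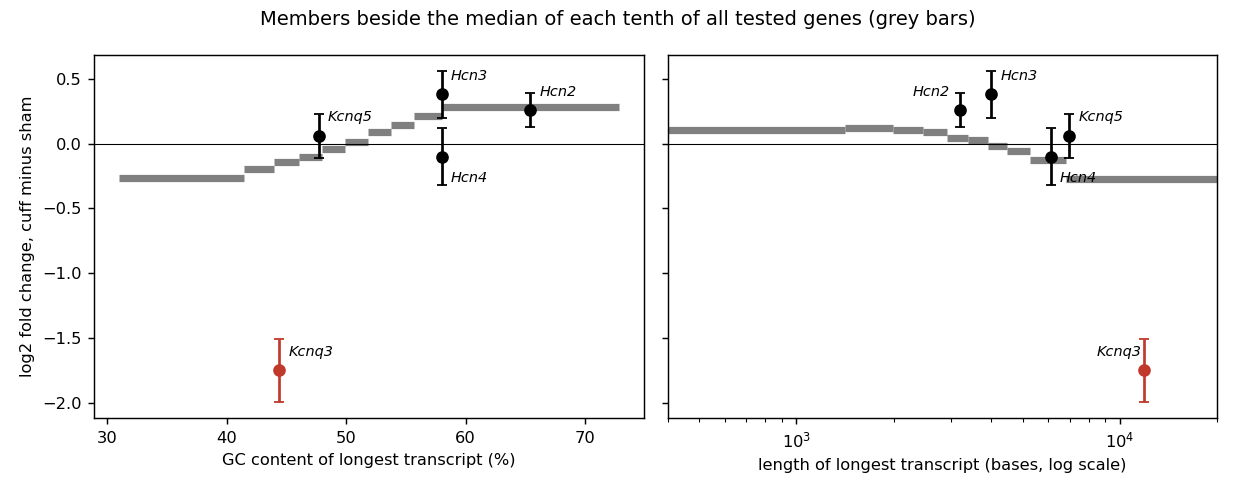
Log2 fold change (vertical axis) of the members (points ± SE, red where called) against GC content and length of the longest transcript (log axis, on which the outermost bars run past the limits). Grey bars give the median of each of 10 equal bins of genes, which runs from -0.27 to 0.28 with GC content. Kcnq3, at -1.75, lies far below the bars on both axes, and Hcn2, at 0.26, lies at the bar of its GC bin.

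Kcnq3 kept its direction with any 1 library left out. Without the first sham-labelled library it was -2.10 (adjusted p = 0.127), and without the second -1.31 (adjusted p = 0.126). Without the first or the second library labelled cuff it was -1.78 (adjusted p = 1.29e-08) and -1.77 (adjusted p = 0.00598). The value thus stayed between -2.10 and -1.31, and the call was lost in the 2 fits that had a single library labelled sham. Those fits called few genes of any kind. The edgeR fit without the first called 0 of 17575, with 2260 at an unadjusted p under 0.05, and the fit without the second called 5 higher and 8 lower of 17529. Whether the lost call came from the spread of Kcnq3 or from the few calls of these fits was not tested. In these fits the lone library is assumed to vary like the other group, and in the fit without the first cuff-labelled library the estimated prior degrees of freedom were infinite, beside 15.8 with all libraries.

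**Figure D5:**
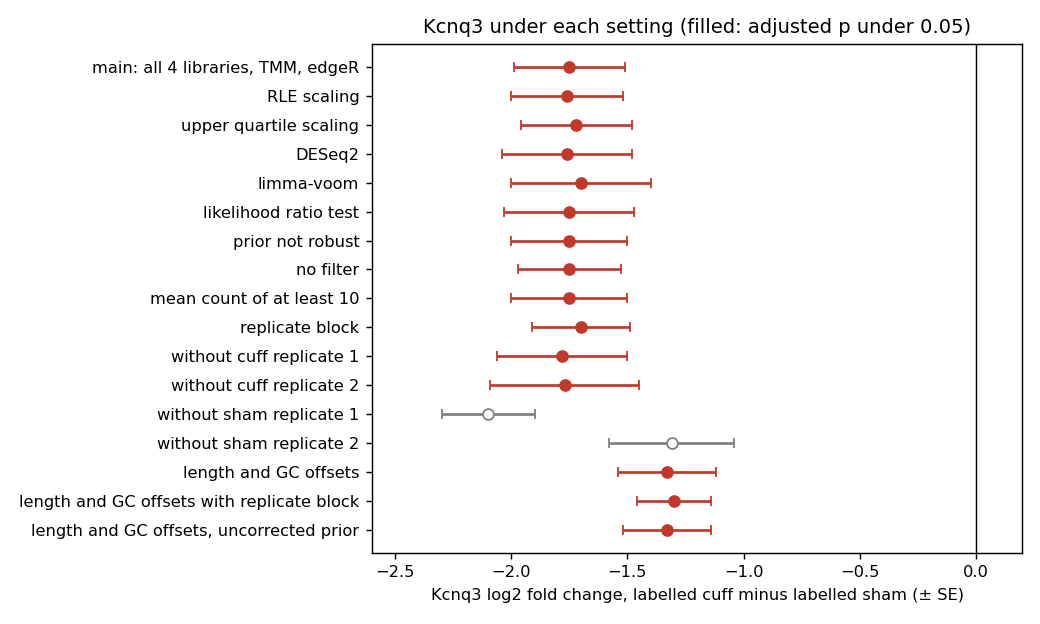
Kcnq3 log2 fold change (horizontal axis, ± SE) under each setting, with filled red points where the adjusted p was under 0.05 and open grey points where it was not. All points lie between -2.10 and -1.30, and the 2 open ones are the fits without 1 library labelled sham.

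Genes around the members were read from 5 lists of 61 genes, 59 of which could be tested. In all, 3 were lower, 0 higher and 56 not called (edgeR quasi-likelihood test), with a median log2 fold change of -0.13. Over all tested genes 2.96% were lower and the median was 0.02, so the share called in the lists was near the background. Of the 16 accessory and binding partners 14 were tested and none passed. Kcne2, an accessory subunit that can join both families, had 18 and 10 counts in the cuff-labelled libraries and 2 and 4 in the sham-labelled pair (2.30 ± 0.90, adjusted p = 0.141). Pex5l, whose product TRIP8b traffics Hcn channels, was at 267 and 206 CPM against 307 and 301 (-0.36 ± 0.14, adjusted p = 0.151). Kcne1 and Kcne3 had too few counts to be tested.

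In the muscarinic and PIP2 pathway that closes M-channels, 1 of 14 genes was lower and none higher. Plcb4, a phospholipase C that splits PIP2, fell from 68.2 and 89.5 CPM in the sham-labelled libraries to 57.0 and 47.6 in the cuff-labelled pair (-0.59 ± 0.15, adjusted p = 0.0383). Plcb1 (-0.30 ± 0.13, adjusted p = 0.185) and Gnaq, the G protein between receptor and phospholipase (-0.30 ± 0.14, adjusted p = 0.218), did not pass. Among 14 genes of cyclic AMP synthesis and breakdown, which bear on Hcn gating, 1 was lower and none higher. Adcy9, an adenylyl cyclase, fell from 33.1 and 48.7 CPM to 25.3 and 23.7 (-0.74 ± 0.17, adjusted p = 0.0305). Adcy1 (-0.36 ± 0.15, adjusted p = 0.178) and the phosphodiesterase gene Pde10a (-0.34 ± 0.14, adjusted p = 0.172) did not pass.

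Kcnq3 channels gather at the axon initial segment and nodes of Ranvier. Of 13 genes of these sites and of channel turnover, 1 was lower and none higher. Scn1a, a sodium channel, fell from 462 and 501 CPM to 344 and 281 (-0.62 ± 0.14, adjusted p = 0.0225). Scn2a (-0.47 ± 0.15, adjusted p = 0.0837) and the ubiquitin ligase gene Nedd4 (-0.43 ± 0.14, adjusted p = 0.0819) did not pass. With the length and GC correction Scn2a was at -0.09 (adjusted p = 0.65) and Nedd4 at -0.23 (adjusted p = 0.208). Ank3, the ankyrin that anchors Kcnq3 there, was at 334 and 291 CPM against 325 and 394 (-0.20 ± 0.14, adjusted p = 0.431). With the length and GC correction Adcy9 was still called (-0.91, adjusted p = 0.0484), while Plcb4 (-0.34, adjusted p = 0.194) and Scn1a (-0.26, adjusted p = 0.167) were not. Each of the 3 stayed negative with any 1 library left out. Without the first sham-labelled library, in the fit that called no gene, Adcy9 was at -1.01, Plcb4 at -0.79 and Scn1a at -0.70. Without the second, Adcy9 was at -0.44, Plcb4 at -0.39 and Scn1a at -0.57, and without the second cuff-labelled library at -0.69, -0.47 and -0.49 in the same order, with none of them called.

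The genes most like each member over the 4 libraries were found by the root mean square difference of log2 CPM, centred on each gene, among 13857 genes. Nearest to Kcnq3 were Kcnh7, another voltage-gated potassium channel gene (difference 0.103), and Trim56 (0.148). Kcnh7 was at 1.41 and 1.64 CPM in the cuff-labelled libraries and at 3.58 and 7.25 in the sham-labelled pair, with the second labelled sham the highest as for Kcnq3. No gene lay within 0.1 of Kcnq3. The other members had common patterns, with 1243 genes within 0.1 of Kcnq5, 1991 of Hcn2, 748 of Hcn3 and 1079 of Hcn4. Nearest were Zbtb7c, Aph1c and Pitpnm2 to Kcnq5 and Mtx1, Tmbim6 and Slc38a3 to Hcn2. Those nearest to Hcn3 were Gmip, Ripor1 and Hpca, and to Hcn4 Vasn, Jakmip1 and Zscan20. With 4 libraries such likeness is a description of these samples.

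Among markers of the cord's neurons the largest fall was that of Slc6a5, of the inhibitory list, at -0.97 ± 0.20, beside -1.75 for Kcnq3. Slc6a5 was at 73.9 and 57.8 CPM in the cuff-labelled libraries and at 104 and 155 in the sham-labelled pair (adjusted p = 0.0348, edgeR quasi-likelihood test). The rest of the inhibitory list did not follow it, since the list ran up to 0.33 and had a median of -0.04. The 8 neuron markers summed to 9979 and 8424 CPM in the cuff-labelled libraries and to 10335 and 9529 in the sham-labelled pair. None of them was called, and their log2 fold changes ran from -0.41 to 0.32. Per 10000 CPM of these markers, Kcnq3 was at 4.64 and 5.63 CPM in the cuff-labelled libraries against 11.2 and 20.9 in the sham-labelled pair. The part of neuron content in its change was not tested. Motor neuron markers (5 genes, none called) summed to 195 and 131 CPM against 214 and 193. Inhibitory neuron markers (5 genes, Slc6a5 lower) summed to 601 and 596 against 590 and 715, and those of excitatory dorsal horn neurons (4 genes, none called) to 294 and 265 against 344 and 362.

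Markers of tissue outside the cord stood out in the second library labelled cuff. The sensory neuron genes Scn10a and Mrgprd had 213 and 19 counts there and 0 in each other library. The whole list of 9 sensory neuron markers, of which 6 were tested and none called, summed to 140 and 163 CPM in the cuff-labelled libraries against 131 and 132. Prph and Calca made up most of these sums. They were at 81.5 and 52.1 CPM in the second cuff-labelled library and at 75.8 and 48 in the second sham-labelled one. Avil had 27 and 315 counts in the cuff-labelled libraries and 17 and 26 in the sham-labelled pair. Scn11a had 8 and 106 counts, against 8 and 8. Schwann cell markers (6 genes, Cdh19 lower) summed to 1000 and 3003 CPM in the cuff-labelled libraries against 471 and 1087, and skeletal muscle markers (6 genes) to 142 and 512 against 92.5 and 65.5. Of the other lists, 5 of 5 endothelial and 2 of 5 blood cell markers were called higher, 1 of 6 astrocyte markers lower, and no oligodendrocyte, microglia, leptomeningeal or skeletal muscle marker was called. Sensory neurons carry Kcnq and Hcn channels too. The part of these cells in the members' values was not tested. For Hcn3, the second library labelled cuff was the highest (16.7 CPM), and without it the log2 fold change was 0.18.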

How the data were processed

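The submitters' processing notes name Trimmomatic 0.30, HISAT2 2.0.1, featureCounts and the build mm10 for the poly(A) RNA-seq reads. The authors deposited raw counts per Entrez gene, 1 file per library. Library totals were 36074864 and 32936609 (labelled cuff) and 39461573 and 38823517 (labelled sham). In 1 file a literal backslash and letter replaced the tab, and it was split there. Of 27179 identifiers, 25275 matched the RefSeq table of GRCm38.p6 (mm10) and 18 more GENCODE M21.

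Genes were filtered with filterByExpr, which left 16918, scaled by TMM and tested with edgeR 4.0.16 (R 4.3.3, quasi-likelihood F test, robust, group only, two-sided). Calls are at a Benjamini-Hochberg adjusted p under 0.05 over all tested genes. CPM values use TMM-scaled totals. Each SE is the size of the log2 coefficient over the root of its F. Lengths and GC content come from the longest GENCODE M21 transcript. The correction fitted each library by local regression on both, for 15465 genes. Alternatives included DESeq2 1.42.0 and limma-voom (limma 3.58.1). The steps were tested on simulated data, in which 35.8% of 1.5-fold changes, 70.1% of 2-fold changes and 95.5% of 4-fold changes were called. Of 16683 genes tested there, 25 unchanged ones were called as well. The changed genes numbered only 67, 67 and 66 in the same order. Unchanged genes thus made up a larger share of the calls than the threshold of 0.05 aims for. No 2 libraries were copies (chi-square per degree of freedom 24.2 to 69.1 over the 6 pairs).

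The members, the 5 lists, the markers and the tests were chosen with earlier results of these data known. The naming rule took all pore subunits, up to 3 genes of each other list by smallest p, and the 3 genes most like each member with a mean of at least 1 CPM; some items it takes are not reported here. Ank3, Kcne1, Kcne3, Pklr and the marker genes Slc6a5, Cdh19, Scn10a, Mrgprd, Prph, Calca, Avil and Scn11a were added after their values were seen.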

Additional observations from a re-analysis of the deposited data

How the results depend on the processing

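With 2 libraries a group, calls rest on the spread shared across genes. Over 16 alternatives Kcnq3 stayed negative, from -2.10 to -1.30, and 14 called it; leaving out a library gave -2.10 to -1.31. Kcnq5, Hcn2, Hcn3 and Hcn4 were called under none of them. Kcnq5 turned to -0.05 without cuff replicate 2 and -0.08 without sham replicate 1 (range when leaving out a library -0.08 to 0.18), and Hcn4 to 0.05 without sham replicate 2 (range -0.26 to 0.05). Hcn2 turned to -0.10 with the length and GC correction, alone, with the replicate block, or at the uncorrected prior. The uncorrected prior, an alternative chosen after seeing the data, takes the prior degrees of freedom of the fit before correction. The cause of these changes of sign was not tested.

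Genes called higher and lower (195 and 501) moved with the setting. Higher calls were 299 with upper quartile scaling, 341 with the likelihood ratio test and 350 with the length and GC correction at the uncorrected prior. Lower calls were 814 with DESeq2. Both moved with a prior that is not robust (60 and 177), no filter (443 and 849) and the length and GC correction (22 and 37). Leaving out a library gave 0 to 714 higher and 0 to 1214 lower. Calls in the 5 lists (3) were 5 with DESeq2, 0 with a prior that is not robust, 1 with the length and GC correction and 0 to 7 when leaving out a library.

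The replicate numbers share only a number: deviations of same-numbered libraries correlated at 0.116 across genes. With the replicate block Kcnq3 was at -1.70 (adjusted p = 0.00681), 309 genes were lower, and 250 with the correction as well. The Kcnq3 to Kcnq5 log2 difference was -2.02 to -1.49 and that of Hcn2 to Hcn4 0.17 to 0.54 when leaving out a library. Per coding length, mean CPM per kilobase over the 4 libraries was 3.90 for Kcnq3 (0.864 by longest transcript), 5.31 for Kcnq5 (2.17), 115 for Hcn2 (93.4), 5.58 for Hcn3 (3.26) and 2.01 for Hcn4 (1.18). Among the pore subunits, depth limits Kcnq1 most: at 15 to 31 counts its 95% interval ran from -0.95 to 1.53.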
